A study of Mus musculus with 2 samples.

Results

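The 9 genes described here are Trdc, Tcrg-C1, Tcrg-V6, Trdv4, Il17a, Il23r, Blk, Cd163l1 and Ccr6, found by their symbols among the 32285 genes of a droplet-based single-cell RNA sequencing dataset of islet leukocytes. They are receptor genes of gamma-delta T cells and genes used by cells that make interleukin-17. The leukocytes came from pancreatic islets of female mice aged 12 weeks, whose islets were freed with collagenase, hand-picked and dispersed without enzymes, and were sorted as live cells with CD45 (a marker of leukocytes) and without CD31 (a marker of endothelium). One group was WT NOD, the strain that develops autoimmune diabetes, and the other NOD.Cxcl16-/-, which lacks the chemokine Cxcl16 according to its label. Each group had 1 library, and the number of animals behind a library was not stated. With 1 library per group no difference has a replicate check and none was tested. Intervals are exact (for differences between shares, Newcombe intervals), at the 95% level, and cover counting error only, which is too narrow for genes whose molecules sit in few cells. Values in pairs give the WT NOD library first and the library labelled NOD.Cxcl16-/- second.

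As background, gamma-delta T cells carry a receptor of a gamma and a delta chain in place of the alpha and beta chains of CD4 and CD8 T cells. Some of them are programmed in the thymus to make interleukin-17A and settle early in life in skin, lung, fat and mucosa, where they respond to interleukin-23 and interleukin-1 without a prior encounter with antigen. Those that pair the V segments Tcrg-V6 and Trdv4 are the best known of this kind, and the same response genes are used by group 3 innate lymphoid cells and T helper 17 cells.

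Filtering left 10715 and 9323 cells that together held 58415009 and 76443151 molecules (UMIs). The median cell had 3908 UMIs in one library and 4923 in the other. The libraries shared 30 barcodes among the kept cells. Cxcl16 stood at 65.8 and 96.8 CPM (UMIs scaled to the same total) over the kept cells, so a transcript counted as Cxcl16 was present in the library labelled as lacking it. Whether this conflicts with the label could not be settled from the counts, and no direction below is attributed to the genotype.

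Cells were gated by their own UMIs. The gamma-delta gate took cells with at least 2 UMIs over Cd3e and Cd3d, at least 2 of Trdc, and none of Cd4 or Cd8b1. Like the other T cell gates and those of ILC and NK cells, it allowed at most 1 UMI over 6 B cell and myeloid genes (Cd79a, Ms4a1, C1qa, C1qb, Csf1r and Siglech). It held 253 cells of the WT NOD library (2.36% of kept cells, interval 2.08 to 2.67) and 200 cells of the other (2.15%, 1.86 to 2.46), at median depths of 4762 and 4741 UMIs. The difference of -0.216 percentage points (-0.627 to 0.199) spanned 0. The CD4 gate held 1370 and 1511 cells, the CD8 gate 1934 and 1365 and the gate for innate lymphoid cells (ILC) 61 and 96. A Trac UMI, which marks the alpha chain, was found in 26.5% and 23.3% of the gamma-delta gate cells without a Cd163l1 UMI and in 32.4% and 26.0% of those with one. Trbc2, a beta chain constant gene, had a UMI in 89.0% and 90.7% of the cells without Cd163l1. In the cells with Cd163l1 its shares were 94.1% and 98.0%.

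The UMIs of 5 genes lay mostly in the gamma-delta gate, those of Tcrg-C1 about evenly inside and outside it, and those of Il23r, Blk and Ccr6 mostly outside. Over both libraries the gate held 77.8% of all Cd163l1 UMIs, 72.6% of Tcrg-V6, 71.9% of Trdv4, 71.2% of Trdc (by which the gate was drawn) and 69.8% of Il17a. It held 49.7% of the Tcrg-C1 UMIs, of which a further 23.2% lay in the CD8 gate. For Il23r the share was 28.2%, with 19.0% in the much smaller ILC gate. Only 4.04% of Blk and 0.440% of Ccr6 UMIs were in the gamma-delta gate, while B cells held 68.9% and 48.7%. These shares move with how the gamma-delta cells are drawn. In the cluster that scored highest for gamma-delta markers, Il23r had 59.7% and Trdc 22.6% of its UMIs. With no Trac UMI allowed the 5 highest shares were between 50.9% and 53.4%. B cells, which should lack the receptor genes and Il17a, served as background at median depths of 4627 and 4724 UMIs. Il17a and Tcrg-V6 had no UMI in 1492 and 1775 B gate cells, which allows shares of up to 0.201% and 0.169% of cells with a UMI (3 counts over the number of cells, the limit used here for a count of 0 in place of an exact interval). Cd163l1 had one in 3 and 0 of these cells, Trdc in 3 and 1, and Tcrg-C1 in 2 and 1. Summed over all kept cells, 1 of the 9 genes was at least 1.5-fold different between the libraries (Tcrg-C1, ratio 1.502, 1.26 to 1.79), where 12.7% of all genes were.

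**Figure D1:**
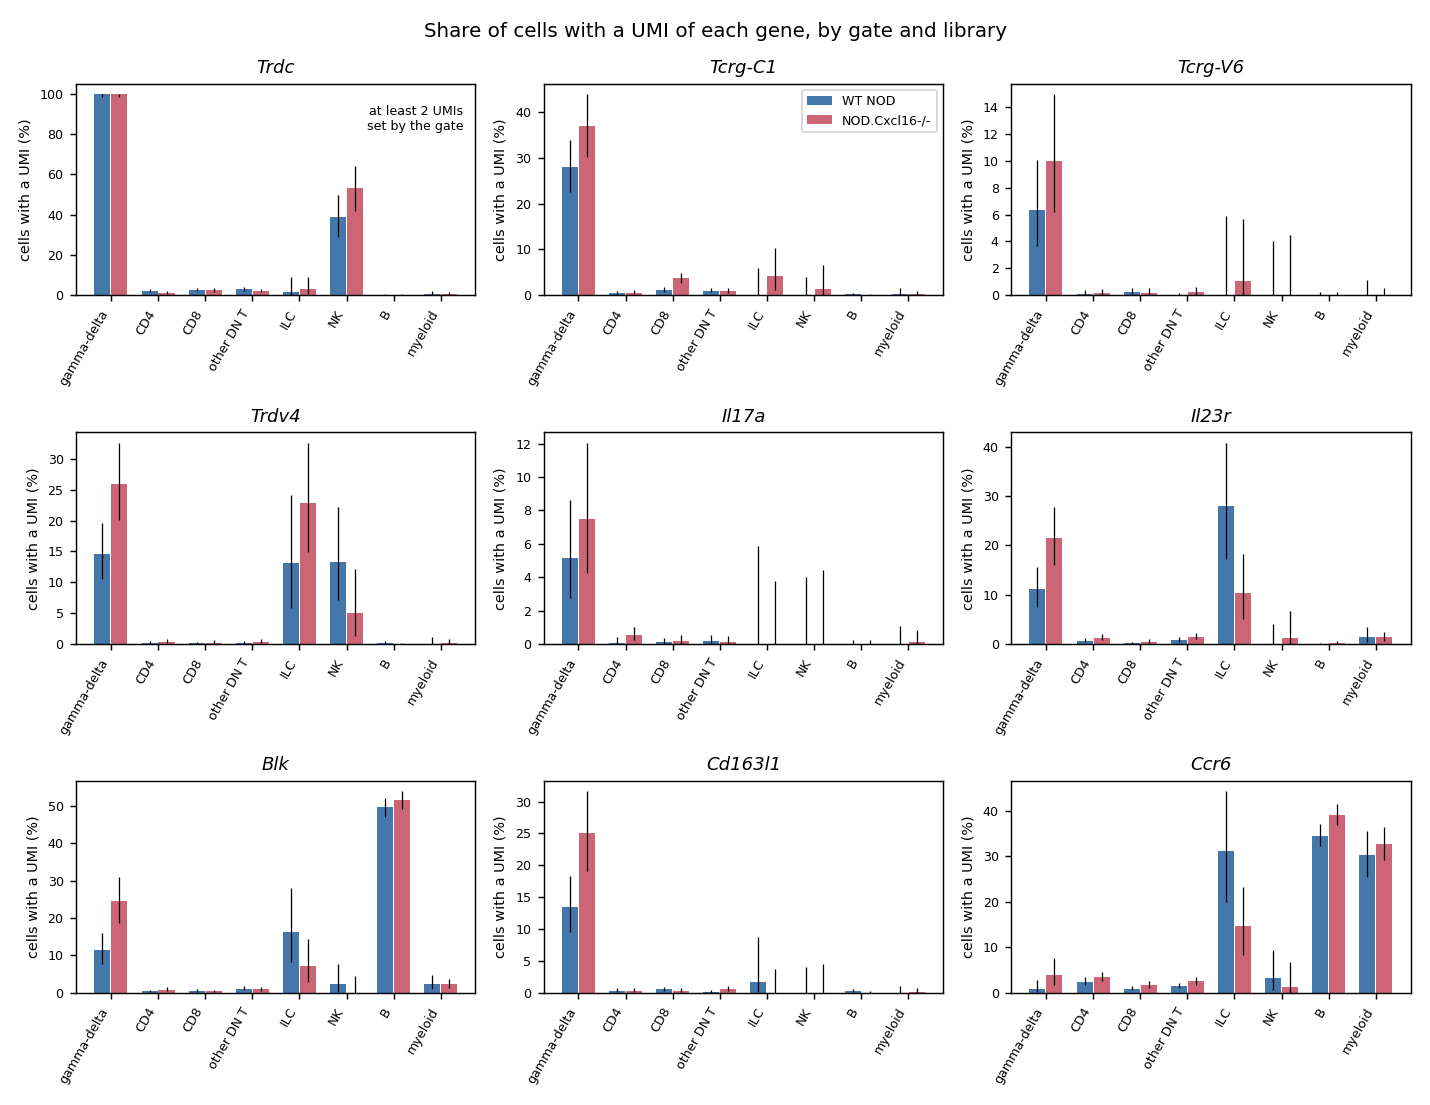
Share of cells with at least 1 UMI (percent, vertical axes, which differ between genes) of each of the 9 genes in 8 gates, with the WT NOD library in blue and the library labelled NOD.Cxcl16-/- in red; bars of error are exact 95% intervals for counting. Tcrg-C1, Tcrg-V6, Il17a and Cd163l1 stand highest in the gamma-delta gate, Trdv4 also stands in the ILC and NK gates, and Blk and Ccr6 stand high in the B gate; the level of Trdc in the gamma-delta gate follows from the gate.

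Among the receptor genes, both constant genes and the delta V segment were higher by CPM in the gamma-delta gate of the library labelled NOD.Cxcl16-/-, though for Trdc by less than 1.5-fold. Trdc (ENSMUSG00000104876; GRCm38 chromosome 14, 54142851 to 54148868, plus strand), the constant part of the delta chain, had 1067 CPM (1013 to 1123) and 1269 CPM (1205 to 1337), values that the gate itself bounds from below. Tcrg-C1 (ENSMUSG00000076749; chromosome 13, 19214103 to 19217024, plus strand), a constant part of the gamma chain, had 89.5 CPM (74.4 to 107) and 152 CPM (129.9 to 176), a ratio of 1.70 (1.34 to 2.15). Its UMIs were in 71 of 253 cells (28.1%) and 74 of 200 (37.0%). Trdv4 (ENSMUSG00000076867; chromosome 14, 54074905 to 54075515, plus strand) had 99.6 CPM (83.7 to 118) and 174 CPM (150.3 to 199.8), a ratio of 1.75 (1.40 to 2.19), in 14.6% and 26.0% of cells. Tcrg-V6 (ENSMUSG00000076746; chromosome 13, 19190356 to 19190929, plus strand) had 25 UMIs in 16 cells and 28 UMIs in 20 cells, 18.04 and 24.7 CPM, and its ratio of 1.37 had an interval of 0.770 to 2.45.

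Tcrg-V6 and Trdv4 are the V segments that define the receptor these genes share, so the last 250 bases of the exons that encode them are printed from GENCODE release M21, 5′ to 3′. Capitals mark the codons of the Tyr-Tyr-Cys motif that ends the framework of a V domain, after which the joined, variable part of the receptor begins. The Tcrg-V6 stretch is chr13:19190680-19190929 and the Trdv4 stretch chr14:54075266-54075515, both on the plus strand of GRCm38.
Tcrg-V6: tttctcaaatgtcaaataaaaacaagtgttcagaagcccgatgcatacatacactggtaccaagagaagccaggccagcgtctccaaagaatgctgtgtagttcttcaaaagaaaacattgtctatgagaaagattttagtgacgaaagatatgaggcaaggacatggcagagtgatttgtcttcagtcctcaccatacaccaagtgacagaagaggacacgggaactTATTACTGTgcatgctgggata
Trdv4: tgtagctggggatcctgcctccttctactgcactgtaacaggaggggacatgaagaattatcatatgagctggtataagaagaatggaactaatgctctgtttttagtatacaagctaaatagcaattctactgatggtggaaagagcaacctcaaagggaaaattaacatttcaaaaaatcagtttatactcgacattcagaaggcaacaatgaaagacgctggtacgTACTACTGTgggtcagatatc
In a receptor transcript these exons lie upstream of the constant exons, while reads of a 3′ library lie near the 3′ end, so a cell without a V segment UMI is not shown to lack that segment. The coding sequence of Tcrg-C2 is 97.4% identical to that of Tcrg-C1 and the last 300 bases of the transcripts are 93.6% identical, so reads of these constant genes may be split between them. Tcrg-C4 differs more, with 78.7% of the coding bases and 60.4% of the last 300 identical to Tcrg-C1.

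Il17a (ENSMUSG00000025929; chromosome 1, 20730905 to 20734496, plus strand), the cytokine itself, was found in few cells, with no difference between the libraries beyond counting error. Its 62 UMIs in the gamma-delta gate of the WT NOD library came from 13 cells (5.14%, 2.76 to 8.63), of which 3 held 37. The other library had 58 UMIs in 15 cells (7.5%, 4.26 to 12.1), of which 3 held 38. The levels were 44.7 CPM (34.3 to 57.3) and 51.2 CPM (38.8 to 66.1), a ratio of 1.14 (0.785 to 1.66). After thinning each cell to 2000 UMIs, which left out 11 and 3 cells, the shares with Il17a were 4.96% and 5.58%. When cells with a Trac UMI were left out of the gate, the log2 ratio of Il17a went from 0.19 to 1.01 (interval 0.39 to 1.69), past 1.5-fold.

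The other genes of the interleukin-17 group were higher in the library labelled NOD.Cxcl16-/-. Il23r (ENSMUSG00000049093; chromosome 6, 67422932 to 67491855, minus strand), the receptor subunit specific to interleukin-23, had 33.9 CPM (24.9 to 45.1) and 74.1 CPM (59.1 to 91.7), a ratio of 2.18 (1.51 to 3.19). Cells with its UMIs made up 11.1% and 21.5% of the gate. Blk (ENSMUSG00000014453; chromosome 14, 63372836 to 63417037, minus strand), a Src family kinase of B cells that gamma-delta T cells also use, had 39.0 CPM (29.3 to 50.8) and 105 CPM (87.0 to 126), the largest ratio of the genes with at least 20 UMIs, at 2.69 (1.94 to 3.79). Cd163l1 (ENSMUSG00000025461; chromosome 7, 140218267 to 140231145, plus strand), a scavenger receptor carried by interleukin-17-producing gamma-delta T cells, had 157 CPM (137 to 179.6) and 360 CPM (326 to 397), a ratio of 2.29 (1.94 to 2.71). Its share of cells was 13.4% and 25%, and after thinning 12.4% and 23.4%. Ccr6 (ENSMUSG00000040899; chromosome 17, 8236043 to 8257141, plus strand), the receptor for the chemokine CCL20, had 3 UMIs in 2 cells and 14 in 8, a ratio of 5.70 (1.59 to 31.0) from too few UMIs for the count below. Under alternative processing its log2 ratio ranged from -0.48 to 2.46, so its direction was not stable.

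Of the 8 genes with at least 20 UMIs over both gates, 5 were called higher (at least 1.5-fold, with an interval of the ratio that left out 1) and 0 lower, against 5.47% of all 8188 such genes called higher, 2.61% lower and 8.09% in either direction. The median log2 ratio of the 8 was 0.78 and that of all genes 0.06. When cells were instead taken from the cluster that scored highest for gamma-delta markers (93 and 102 cells), 2 of the 9 genes were called, Trdc and Cd163l1. Il23r changed direction there, at a log2 ratio of -0.27. The clusters were made without the 9 genes, but the markers that chose this one included Trdc, Tcrg-C1, Trdv4, Tcrg-V6, Cd163l1 and Blk. Levels of these genes in it follow in part from that choice. Only 40 of the 253 and 60 of the 200 gamma-delta gate cells were in that cluster, where they were 40 of 93 and 60 of 102 cells. Cells with a Cd163l1 UMI numbered 36 and 55 in the cluster, against 34 and 50 in the gate. The cluster also held 26 and 12 cells of the ILC gate, where Il23r is also found.

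**Figure D2:**
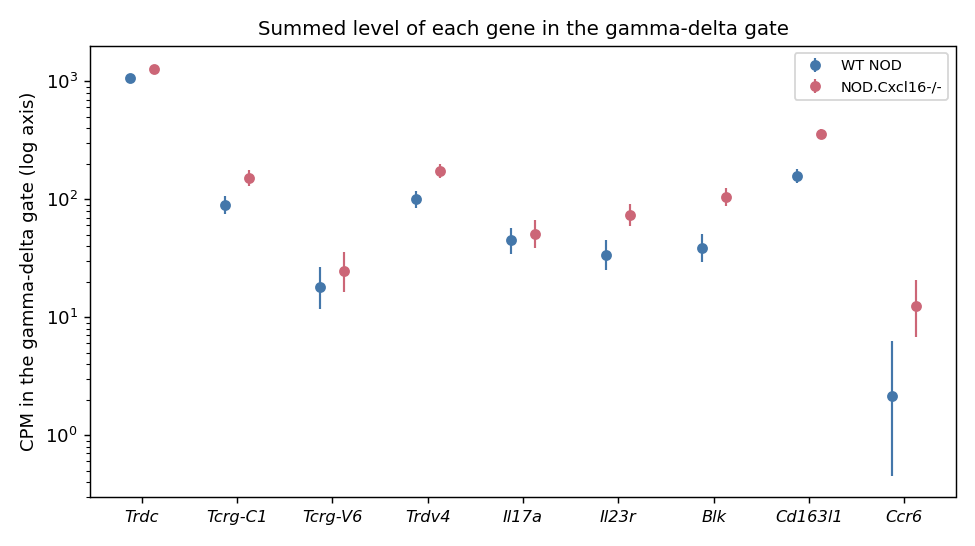
Level of each gene summed over the gamma-delta gate (CPM, logarithmic vertical axis) in the WT NOD library (blue) and the library labelled NOD.Cxcl16-/- (red); lines are exact Poisson 95% intervals. The intervals of Trdc, Tcrg-C1, Trdv4, Il23r, Blk, Cd163l1 and Ccr6 do not overlap between the libraries, and those of Tcrg-V6 and Il17a do.

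Other genes used by interleukin-17-producing cells were higher too, 3 of which, chosen after their values were seen, are given here. Il1r1, the interleukin-1 receptor, had 47.6 and 118 CPM, Cxcr6, the receptor for CXCL16, 258 and 515 CPM, and Sox13, a factor of these cells' thymic programme, 6.49 and 19.4 CPM. Of the 15 interferon-gamma programme genes, 14 had enough UMIs and none was higher, while 2 were lower (2.61% of all genes were), Ifng at 159 and 89.1 CPM and Gzmk at 18.04 and 3.53 CPM. Of 8 other receptor genes with enough UMIs none was called in either direction, a count that does not stand apart from the 8.09% of all genes called. Levels of markers of other cell types also differed. The summed level of 5 islet endocrine markers was 20.2 and 115 CPM and that of 5 macrophage markers 10.1 and 29.99 CPM, the latter limited by the gate itself. NK cell markers summed to 530 and 652 CPM, and many cells of the gate carried them. The NK receptor gene Ncr1 was in 35.2% and 44.7% of gate cells without Cd163l1, and in 2.94% and 2% of those with it. The part of these markers in the result was not tested. In the myeloid gate itself Cd163l1 had 0 and 10 UMIs, the latter in 1 cell, and Trdv4 had 0 and 1.

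Detection of the genes within single cells fell into a low and a high group with few cells between. Counting the 8 genes other than Trdc, 214 of 253 cells (84.6%) of the WT NOD library had 0 or 1, 8 cells (3.16%) had 2 or 3, and 31 cells (12.3%, 8.48 to 16.9) had 4 or more. For the library labelled NOD.Cxcl16-/- the numbers were 139 of 200 (69.5%), 12 (6%) and 49 (24.5%, 18.7 to 31.1). Cells with 4 or more were not deeper, at median depths of 3966 and 4363 UMIs against 5074 and 5095 in those with 0 or 1. In the CD4 gate 1 and 3 cells had 4 or more, and in the CD8 gate 1 and 2. Those few cells were deep, with medians of 14720 and 13579 UMIs in the CD4 gate and 16022 and 15072 in the CD8 gate, and whether they are doublets was not tested.

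**Figure D3:**
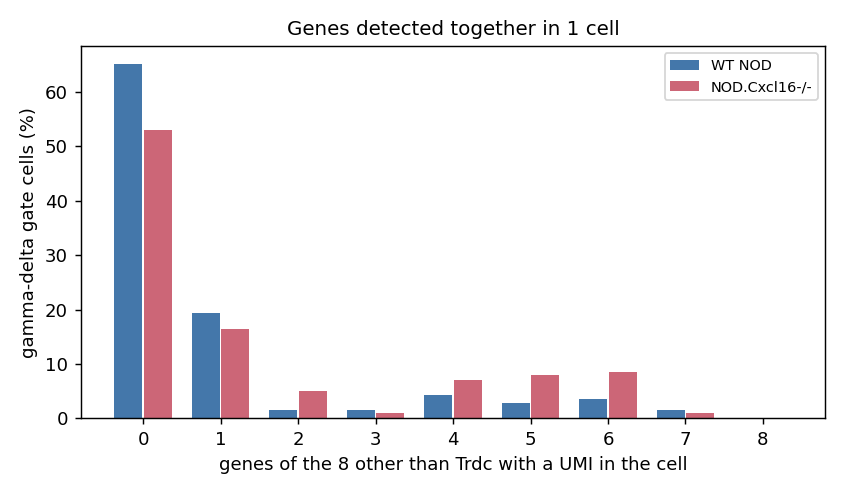
Share of gamma-delta gate cells (percent, vertical axis) by how many of the 8 genes other than Trdc had a UMI in the cell (horizontal axis), in the WT NOD library (blue) and the library labelled NOD.Cxcl16-/- (red). Most cells have 0 or 1, and a second group has 4 to 7, with 12.3% and 24.5% of cells at 4 or more.

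The pairs of genes showed which cells these were. All 16 Tcrg-V6 cells of the WT NOD library also had Trdv4 (100%, 79.4 to 100%) and Cd163l1, and in the other library 19 of 20 had Trdv4 (95%, 75.1 to 99.9) and 19 of 20 Cd163l1. Among gamma-delta gate cells without Cd163l1, Trdv4 was found in 2.74% and 2.67%. Of the cells with Cd163l1, 31 of 34 (91.2%) and 48 of 50 (96.0%) had Trdv4. Tcrg-C1 was in 28 of these 34 and 45 of 50, against 19.6% and 19.3% of the cells without Cd163l1. Il17a followed the same cells, with all 13 of its cells in the WT NOD library and 14 of 15 in the other also having Cd163l1. Conversely, 38.2% (22.2 to 56.4) and 28.0% (16.2 to 42.5) of Cd163l1 cells had an Il17a UMI. Blk was in 73.5% and 84.0% and Il23r in 64.7% and 68.0% of Cd163l1 cells, and in 1.83% and 4.67% (Blk) and 2.74% and 6% (Il23r) of cells without it. Ccr6 did not follow them. Of its 2 and 8 cells, 1 and 2 had Cd163l1.

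**Figure D4:**
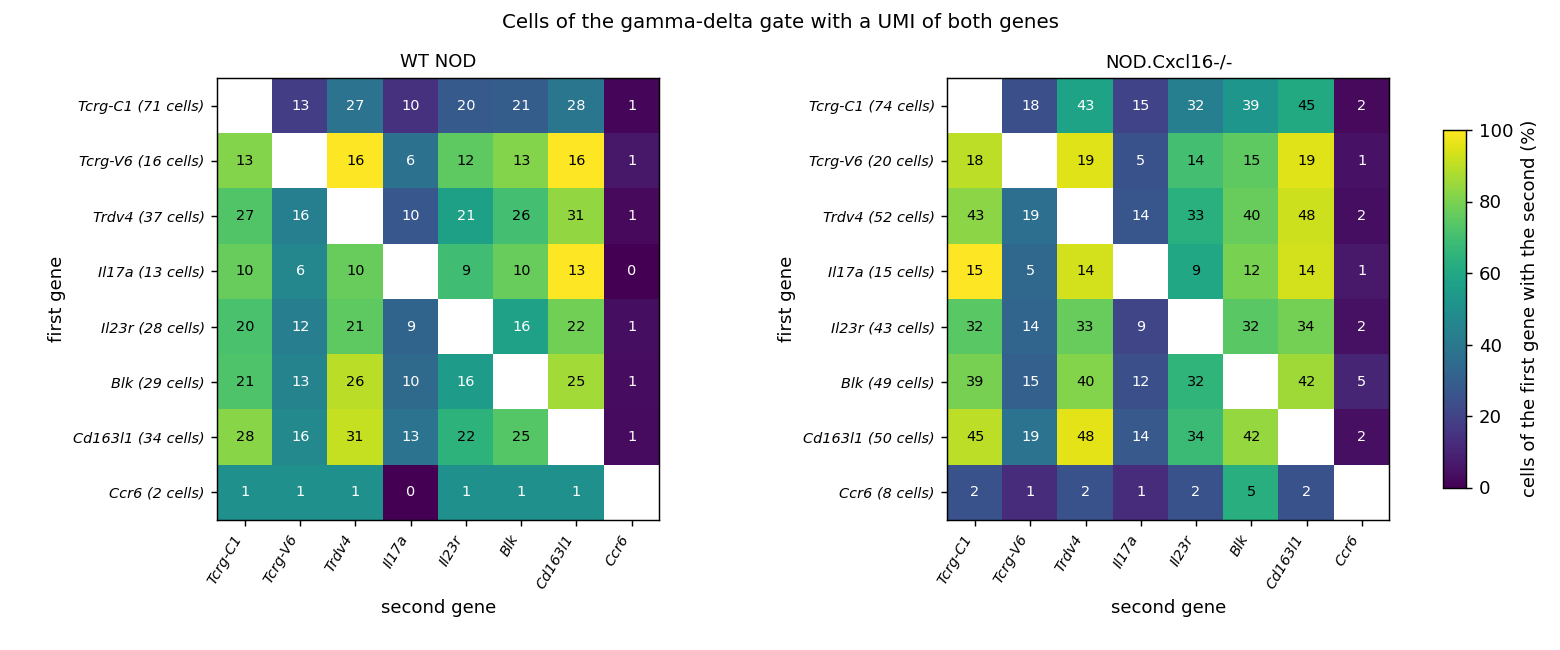
Pairs of genes in single cells of the gamma-delta gate, for the WT NOD library (left) and the library labelled NOD.Cxcl16-/- (right). Numbers are cells with a UMI of both genes and colour is their share of the cells of the first gene (rows; percent); the rows of Tcrg-V6 and Il17a reach 100% or nearly so for Cd163l1, and the columns of Ccr6 stay low.

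Since Cd163l1 was detected in nearly all cells of the group, the gate was split on it, a choice made after its values were seen, so the contrast describes these cells and tests nothing. In the WT NOD library 7 of 8 genes with at least 20 UMIs were higher in cells with Cd163l1, and in the other 8 of 8, where 9.42% and 9.69% of all genes were higher. Cd163l1 itself is one of them by the split, and the gene that did not pass was Trdc (1014 and 1504 CPM without and with Cd163l1). Trdv4 had 6.48 and 861 CPM without and with Cd163l1 in the WT NOD library, and 4.42 and 840 CPM in the other. Tcrg-C1 had 43.7 and 464 CPM, then 43.1 and 579 CPM. Il23r had 4.86 and 272 CPM, then 17.7 and 296 CPM.

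Il1r1, Cxcr6 and Maf were higher in the same cells, and most genes of the interferon-gamma programme in the rest of the gate. Il1r1 had 6.48 and 384 CPM without and with Cd163l1 in the WT NOD library, and 17.7 and 514 CPM in the other. Cxcr6 had 151 and 1133 CPM, then 239 and 1602 CPM. Maf, a transcription factor, had 79.4 and 623 CPM, then 95.1 and 553 CPM. The interferon-gamma list was lower with Cd163l1 in 9 of 14 and 10 of 13 genes, where 4.82% and 9.49% of all genes were lower. Ifng had 178 and 6.63 CPM without and with Cd163l1 in the WT NOD library, and 112 and 0 CPM in the other. Ccl5, a chemokine of cytotoxic cells, had 6867 and 755 CPM, then 5924 and 47.9 CPM. Cd27, whose loss marks interleukin-17-producing gamma-delta T cells, had 152 and 19.9 CPM, then 167 and 4.35 CPM.

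Some other receptor genes and most markers of NK cells were lower in the cells with Cd163l1. Of 7 other receptor genes with enough UMIs, 4 were lower and 0 higher in each library, where 4.82% and 9.49% of all genes were lower. Tcrg-C2 had 101 and 33.1 CPM without and with Cd163l1 in the WT NOD library and 142 and 56.6 CPM in the other, opposite to Tcrg-C1. Tcrg-V1 had 78.5 and 26.5 CPM, then 77.4 and 30.5 CPM, and Trgv2 had 109 and 33.1 CPM, then 92.9 and 26.1 CPM. Trbc1, a beta chain constant gene, had 462 and 298 CPM, then 524 and 335 CPM. The other 3 did not pass 1.5-fold either way. Tcrg-C4 had 125 and 119 CPM, then 136 and 169.8 CPM, Trac had 121 and 119 CPM, then 101 and 78.4 CPM, and Trbc2 had 982 and 861 CPM, then 924 and 1054 CPM. Of 6 NK markers, 4 and 5 were lower with Cd163l1, among them Ncr1, an activating receptor of NK cells, at 203 and 86.1 CPM, then 229 and 4.35 CPM. In the WT NOD library the 86.1 CPM came from 13 UMIs in 1 of the 34 Cd163l1 cells.

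**Figure D5:**
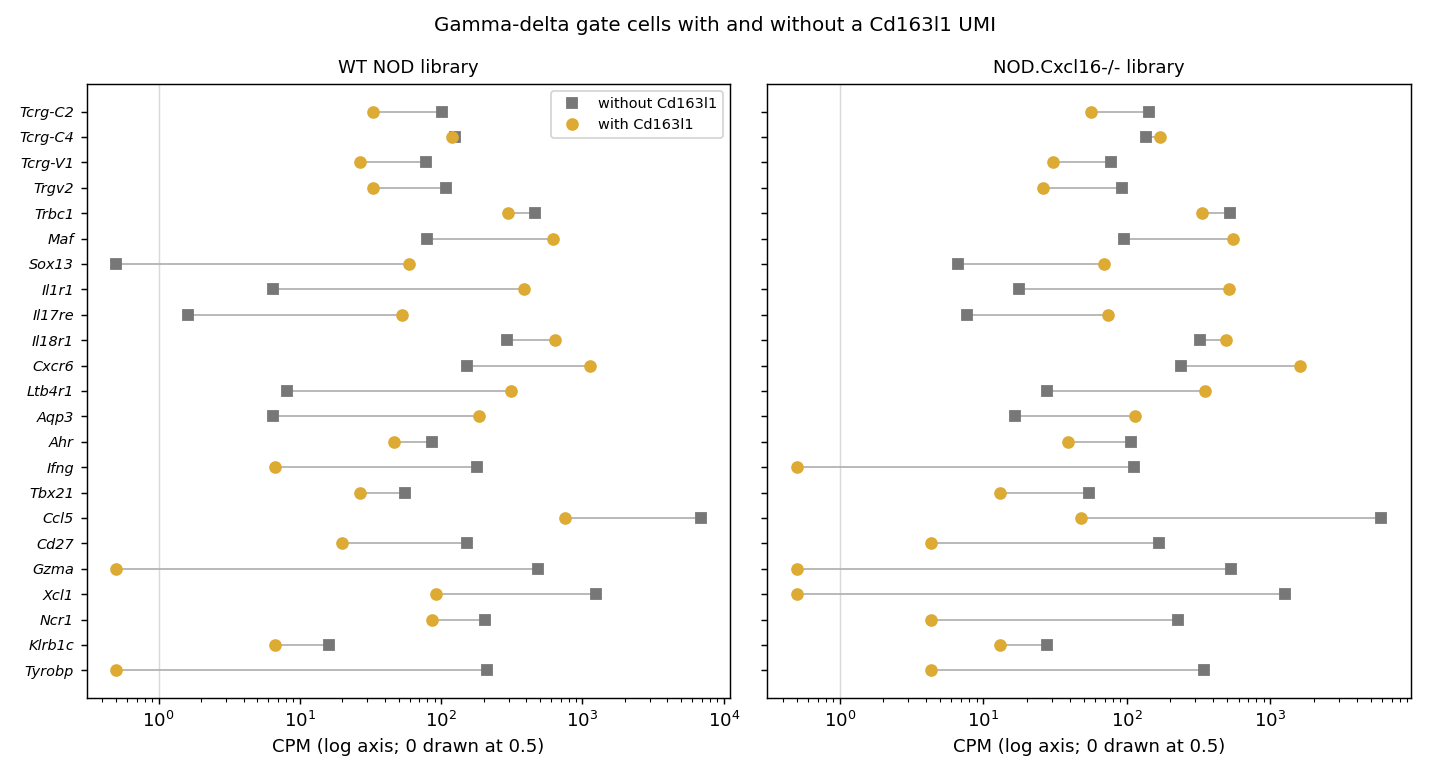
Level of selected genes of 4 fixed lists (CPM, logarithmic horizontal axis, values of 0 drawn at 0.5) in gamma-delta gate cells with (gold circles) and without (grey squares) a Cd163l1 UMI, for the WT NOD library (left) and the library labelled NOD.Cxcl16-/- (right). The genes from Maf to Aqp3 lie higher with Cd163l1 in both libraries, while Tcrg-C2, Tcrg-V1, Trgv2, Ifng, Ccl5, Cd27 and Ncr1 lie lower.

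Between the libraries, both the share of Cd163l1 cells and the level of some genes within them differed. Cd163l1 cells made up 13.4% (9.49 to 18.3) and 25% (19.2 to 31.6) of the gate, a difference of 11.6 points (4.30 to 19.0). As a share of all kept cells they were 0.317% and 0.536%, and cells of the gate without Cd163l1 were 2.04% and 1.61%, a difference of -0.435 points (-0.806 to -0.0617). Within the Cd163l1 cells, Trdv4 stood at 861 and 840 CPM, a ratio of 0.976 (0.777 to 1.23). Il23r stood at 272 and 296 CPM, Tcrg-C1 at 464 and 579 CPM and Tcrg-V6 at 166 and 118 CPM, all with intervals of the ratio that span 1. Blk at 318 and 462 CPM (ratio 1.45, 1.02 to 2.09) and Cd163l1 itself at 1444 and 1777 CPM (1.23, 1.04 to 1.46) were under 1.5-fold. Of the 8 genes with enough UMIs, 2 passed 1.5-fold, where 7.28% of all genes did. Trdc was higher, at 1504 and 2417 CPM (1.61, 1.37 to 1.88). Il17a was lower, at 411 and 222 CPM (0.541, 0.366 to 0.796); over the whole gate 3 cells of each library held 37 of its 62 and 38 of its 58 UMIs. In cells without Cd163l1, Tcrg-C1 stood at 43.7 and 43.1 CPM and Trdc at 1014 and 978 CPM. Il23r was the 1 gene of the 3 with enough UMIs there that was called, at 4.86 and 17.7 CPM (3.64, 1.35 to 11.4) from 6 and 16 UMIs, against 6.88% of all genes.

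In the CD4 gate, Il17a differed most, through a handful of cells. It had 1 UMI in 1 of 1370 cells of the WT NOD library and 26 UMIs in 8 of 1511 cells (0.529%, 0.229 to 1.04) of the other, a ratio of 19.3 (3.16 to 789). Of these 26 UMIs, 20 lay in 3 cells, and 8 lay in 4 of the 221 cells with a Foxp3 UMI, the marker of regulatory T cells. Of the 8 cells, 5 had a Trac, 4 an Il23r and 1 a Trdc UMI. Il17a was the 1 gene called among 7 with at least 20 UMIs, against 2.92% of all genes called higher in the CD4 gate and 5.62% called in either direction. Il23r was in 0.657% and 1.26% of cells (1.67 and 2.82 CPM, ratio 1.69, 0.878 to 3.43). Ccr6, a receptor of T helper 17 and regulatory T cells, was in 2.41% and 3.51% (5.71 and 6.52 CPM). Trdc had 94 and 101 UMIs in 29 and 19 cells, and 45 and 47 of these UMIs lay in 3 cells each.

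In the CD8 gate, Tcrg-C1 was higher in the library labelled NOD.Cxcl16-/-, and its neighbour genes in the locus were frequent in both. Tcrg-C1 had 26 UMIs in 23 cells (1.71 CPM) and 112 in 50 cells (9.36 CPM), a ratio of 5.48 (3.55 to 8.74). Most of these UMIs were in cells without Trdc, 20 and 93 of them. Among CD8 gate cells without Trdc, Tcrg-C2 was in 26.2% and 28.6% and Tcrg-C4 in 18.6% and 24.6%, with a Trac UMI in 89.4% and 92.8%, so transcripts from other gamma constant genes were common in cells with an alpha chain. Trdc was at 8.94 and 14.7 CPM (1.64, 1.31 to 2.07), but its mean over cells gave a log2 ratio of -0.037, and 2.59% and 2.34% of cells had it. Its UMIs clumped, with 29 and 60 in 3 cells. Ccr6 was at 1.45 and 3.17 CPM (2.20, 1.27 to 3.90), with a log2 ratio of 0.077 by the mean over cells. With doublets kept, neither Trdc (log2 ratio 0.36) nor Ccr6 (0.10) reached 1.5-fold. These 3 were called among 5 genes with enough UMIs, against 4.21% of all genes called higher and 6.56% called in either direction. Il17a had 2 and 3 UMIs, and Tcrg-V6 4 and 2.

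In the ILC gate, which lacks Cd3e and Cd3d and needs Il7r and further ILC genes, 3 genes were lower in the library labelled NOD.Cxcl16-/-. Il23r had 195 CPM (148 to 252) and 54.8 CPM (37.0 to 78.2), a ratio of 0.281 (0.175 to 0.444), in 17 of 61 and 10 of 96 cells. Ccr6 had 138 and 62.1 CPM (0.450, 0.277 to 0.728) and Blk 57.1 and 23.7 CPM (0.415, 0.186 to 0.908). They were 3 of the 4 genes with enough UMIs, where 6.33% of all genes were lower and 12.1% were called. The makeup of the gate moved with them. Of 8 markers of group 2 ILC, 5 were higher, such as Il1rl1, the interleukin-33 receptor, at 145 and 236 CPM. Il22, a cytokine of group 3 ILC, was lower, at 235 and 58.4 CPM. Il1b, a cytokine mainly of myeloid cells, had 1 and 159 UMIs in the gate (3.36 and 290.3 CPM). The part of either in the result was not tested.

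Within the ILC gate, Trdv4 and Il23r were never found in the same cell. Trdv4 had 12 UMIs in 8 cells (13.1%, 5.84 to 24.2) and 30 in 22 cells (22.9%, 14.95 to 32.6), with 0 of these 8 and 0 of these 22 cells having Il23r, Ccr6 or Blk. Trdc had only 2 and 3 UMIs there, and Il17a none, a count of 0 that allows up to 4.92% and 3.12% of cells with a UMI by the same limit of 3 counts. Il23r and Ccr6 were found together in 14 of 17 and 6 of 10 Il23r cells. Of the Trdv4 cells of this gate, 0 of 8 and 1 of 22 had Trdc, whereas the gamma-delta gate requires it.

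In the remaining gates, the members followed NK, B and myeloid cells one by one. Trdc was in 38.9% and 53.1% of NK gate cells, which have Ncr1 or Klrb1c and no Cd3e or Cd3d UMI, at 146 and 212 CPM (1.45, 1.02 to 2.07), and Trdv4 in 13.3% and 4.94%, while Tcrg-C1 had 0 and 1 UMIs. Blk was in 49.7% and 51.6% of B gate cells, at 158 and 140.0 CPM, and Ccr6 in 34.6% and 39.1%, at 92.1 and 95.4 CPM. Myeloid gate cells, with medians of 11686.5 and 12115 UMIs, had Ccr6 in 30.2% and 32.7%, at 45.0 and 45.6 CPM. The other T cells without Cd4, Cd8a or Cd8b1 had Cd163l1 in 2 and 8 cells (3 and 25 UMIs, 20 of the 25 in 3 cells) and Il23r at 4.196 and 6.92 CPM. Of the 6 genes with enough UMIs there, Cd163l1, Il23r and Ccr6 were higher and Trdc, held to at most 1 UMI per cell, was lower, where 2.95% of all genes were higher, 2.95% lower and 5.9% either.

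The order of the levels per gene, by CPM, differed between the genes. Cd163l1, Il17a, Tcrg-C1, Tcrg-V6 and Trdv4 were highest in the gamma-delta gate of both libraries. Il23r was highest in the ILC gate of the WT NOD library (195 CPM, against 33.9 in the gamma-delta gate), but in the other library its gamma-delta (59.1 to 91.7) and ILC (37.0 to 78.2) intervals overlapped. For Blk, B cells were highest in both libraries. The ILC interval (33.3 to 91.5) overlapped that of the gamma-delta gate (29.3 to 50.8) in the WT NOD library and lay under it in the other (12.6 to 40.6 against 87.0 to 126). Ccr6 was highest in the ILC gate of the WT NOD library (98.9 to 187), above B cells (85.5 to 98.9) with intervals that meet, while in the other library B cells (90.0 to 101) lay above the ILC gate (43.0 to 86.7).

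Of the other genes of interleukin-23 and interleukin-17 signalling, 9 of 15 had enough UMIs in the gamma-delta gate, of which 1 was called, where 8.09% of all genes were, so the count does not stand apart from the background. The 1 gene was Il12rb1, the partner chain of Il23r, at 7.94 and 18.5 CPM (2.33, 1.08 to 5.36). Il23a, the subunit specific to interleukin-23, was at 8.86 and 7.39 CPM in myeloid gate cells and had no UMI in the gamma-delta gate of either library, and Il12b, its partner, was at 152 and 166 CPM in myeloid cells. Il1b, whose receptor is Il1r1, stood there at 1102 and 1367 CPM. Il17ra, the common receptor chain, was at 38.2 and 32.6 CPM in the gamma-delta gate, 27.9 and 28.1 CPM in B cells and 19.99 and 24.2 CPM in myeloid cells. Ccl20, the ligand of Ccr6, had no UMI in the gamma-delta, ILC, B or myeloid gates of either library. Of 8 Src family kinases and relatives, 6 had enough UMIs in the gamma-delta gate and none was called, which at 8.09% of all genes does not set them apart.

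The genes most like each of the 9 were sought by Pearson's r of log2 (CPM + 1) over 18 profiles, 9 gates in each library, among 11814 genes. The profiles share libraries and depth, so r is a description. Trdv4 was most like Slc27a6 (r = 0.96), Abi3bp (0.94) and Il17re (0.92), a receptor chain of interleukin-17-producing cells. Il23r was most like Ltb4r1 (0.94), the leukotriene B4 receptor, with Nr1d1 (0.94) and Pard3 (0.94) next. For Ccr6 the first were Hmgn3 (0.95), Hdac9 (0.93) and Evi5 (0.92). Trdc had Ppil2 (0.91), Gab3 and Cd200r4 (both 0.87), and Blk had Serpinb1a (0.87), Cd69 (0.85) and Irak3 (0.83). Cd163l1 and Il17a shared their first gene, Ly6g5b (0.88 and 0.85), and both had Syde2 (0.83 and 0.85) among their first 3, beside Ppp1r14c (0.87) for Cd163l1 and Prickle2 (0.83) for Il17a. Tcrg-C1 was most like Actn2 (0.85), Etfdh (0.85) and Tcrg-V1 (0.84), and Tcrg-V6, the sparsest of them, Nefl (0.81), Tcrg-V1 (0.79) and Slc7a6os (0.78).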

How the data were processed

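Per the file headers and the submitters' processing notes, the authors deposited raw UMI counts per gene and barcode, made with Cell Ranger 7.0.1 on the mm10 build from a 10x Genomics 3′ library. The annotation and the handling of intronic reads are not given in the sources used here. Barcodes with under 500 genes or over 10% mitochondrial UMIs were left out, and doublets were removed by a score from simulated doublets, at a share fixed at 0.8% per 1000 barcodes (1537 and 891). Gates used UMIs of each cell, summed to CPM per gate and library. A gene was called where it had 20 UMIs or more over both libraries, differed by 1.5-fold and had an exact conditional interval of the rate ratio without 1. Log2 ratios add 1 CPM. The 9 genes and the lists were chosen with earlier results of these data known. Genes named are the 9, the 3 most like each, and examples from fixed lists; the examples, and the split on Cd163l1, were chosen after their values were seen. Thinning drew 2000 UMIs per cell. The comparison was tried on simulated Poisson counts, the model that its interval assumes. Such counts are not clumped in few cells, so the trial does not show how the rule behaves on clumped UMIs. Python 3.11.15, scipy 1.17.1 and scanpy 1.11.5 were used. With 1 library per group, no model was fitted. Sequences come from GENCODE M21. Some genes and gene lists are not reported here.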

Additional observations from a re-analysis of the deposited data

How the results depend on the processing

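No paired analysis was possible because each group has 1 library. Alternatives were 200 genes per barcode, doublets kept, 1 or 3 Trdc UMIs, no Trac and no UMI of excluded lineages. Others were the cluster scoring highest for gamma-delta markers, other scalings, 5 CPM added, no minimum of UMIs and thinning. Chosen after seeing the data were a gate without Ncr1 or Klrb1c UMIs and the share with Cd163l1. The cluster moved more values than any other alternative. The share of kept cells then differed by 0.226 points, 2 genes were called, and Il17a was in 17.2% and 20.6% of cells. Cd163l1, among the markers that chose the cluster, was in 38.7% and 53.9%. Trdv4 was then in 100% of Tcrg-V6 cells in the library labelled NOD.Cxcl16-/- (from 95%), and the log2 ratio of Il23r reversed to -0.27. Over all alternatives, the share of Tcrg-V6 cells with Trdv4 ranged from 81.8% to 100% in the WT NOD library and from 86.4% to 100% in the other. Without Ncr1 or Klrb1c UMIs, Cd163l1 was in 18.7% and 37.9%. The mean of each cell's CPM turned the log2 ratio of Trdc in the CD8 gate to -0.037. The cause was not tested. Of 108 values for single genes in the gamma-delta gate under the alternatives, 97 stayed within the main counting interval, 10 moved out of it and 1 reversed. The log2 ratio of Ccr6 there, from few UMIs, ranged from -0.48 to 2.46, so its sign also changed under an alternative. So did the signs of Tcrg-V6 (-0.127 to 0.968) and Il17a (-0.0078 to 1.008) in that gate. In the ILC gate all 63 stayed. In the CD4 gate 8 of 63 moved, and in the CD8 gate 7 moved and 1 reversed. Of 72 shares of a gene's UMIs in the gamma-delta gate, 35 moved, those of Cd163l1 ranging from 52.7% to 83.2%, of Il17a from 51.7% to 85.5%, of Il23r from 17.9% to 59.7% and of Trdc from 22.6% to 73.6%. The number of genes called ranged from 2 to 7. Depth limits Tcrg-V6, Ccr6 and Il17a, which rest on 2 to 20 cells per library in the gamma-delta gate.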
